A study of Mus musculus with 6 samples.

Results

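The interleukin-1 (IL-1) family and the receptors through which it signals were examined in 2 mouse squamous cell carcinoma (SCC) lines that differ in focal adhesion kinase (FAK). The genes were taken by identifier, 8 of the 17204 on the arrays, and all 8 had a value on every array: Il1a, Il1b, Il1rn, Il18 and Il33, which encode ligands or an antagonist, and Il1rl1, Il1r1 and Il1rap, which encode receptor chains. Both lines descend from a skin SCC induced chemically in K14CreER FAKflox/flox mice of the FVB strain, in which Cre is driven by the keratin 14 promoter of basal keratinocytes. SCC FAK-/- is a single clone that lost FAK after 4-hydroxytamoxifen, and SCC FAK-WT is that clone after a retrovirus restored wild-type FAK, kept under hygromycin. FAK, the retrovirus and the drug selection therefore cannot be told apart in this comparison. Each line was represented by 3 arrays, which the design describes as biological replicates, and values are given as log2 expression. The spread between arrays, and the p-values that rest on it, cover these 2 lines alone and not other clones or repeats of the retroviral step. The fak gene and keratinocyte markers were not analysed here, because apart from these 8 genes no identifier was paired with a name, so neither the labels nor the cell type were checked on the arrays.

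Agonists of the IL-1 family bind a ligand-specific receptor chain, which then recruits a co-receptor and signals through the adaptor MyD88 to NF-kB and MAP kinases. The co-receptor encoded by Il1rap serves IL-1α, IL-1β and IL-33, whereas IL-18 uses its own pair of chains, and the product of Il1rn binds the IL-1 receptor without recruiting a co-receptor. Keratinocytes are a rich source of several of them: IL-1α and IL-33 are kept in the cell and released on injury as alarmins, while IL-1β and IL-18 are made as precursors that caspase-1 cleaves. IL-33 acts through the receptor ST2, the product of Il1rl1, which is carried by regulatory T cells, mast cells and innate lymphoid cells and which also exists as a soluble decoy. A transcript level reports none of cleavage, release or the choice between soluble and membrane-bound receptor.

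Il33 was the member with the clearest difference and was higher in SCC FAK-WT cells, by 1.97-fold. Its call lay close to the threshold (limma, adjusted p = 0.0494) and was kept in 5 of 12 alternative fits. The transcripts of 2 receptor chains, Il1r1 and Il1rl1, were higher on every SCC FAK-WT array than on any SCC FAK-/- array. Their means differed by 1.51-fold and 1.33-fold without passing the adjusted threshold. Separation in that direction was found for 11.5% of all genes. The remaining 5 genes overlapped between the lines, and among them Il18 spread over 9.42-fold between SCC FAK-WT replicates.

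To place these genes, the 250 bases before their annotated transcription starts are shown for the 3 genes whose arrays did not overlap between the lines and for Il18, the gene with the widest replicate spread. The sequences are from RefSeq (GRCm38.p6), read 5′ to 3′ along each gene's strand and ending at the base before the start. Capitals mark matches to 6 motifs searched on both strands: a TATA box (TATAAA), AP-1 (TGANTCA), C/EBP (TTGCNNAA), the octamer bound by POU factors (ATTTGCAT), the interferon-stimulated response element (GAAANNGAAA) and the kappaB consensus.
Il33 start 1 (chr19:29924863-29925112, plus strand): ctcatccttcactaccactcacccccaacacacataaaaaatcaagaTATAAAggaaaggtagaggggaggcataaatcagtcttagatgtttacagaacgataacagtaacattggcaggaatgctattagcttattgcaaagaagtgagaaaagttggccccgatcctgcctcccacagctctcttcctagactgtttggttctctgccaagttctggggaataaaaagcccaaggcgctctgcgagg
Il33 start 2 (chr19:29945540-29945789, plus strand): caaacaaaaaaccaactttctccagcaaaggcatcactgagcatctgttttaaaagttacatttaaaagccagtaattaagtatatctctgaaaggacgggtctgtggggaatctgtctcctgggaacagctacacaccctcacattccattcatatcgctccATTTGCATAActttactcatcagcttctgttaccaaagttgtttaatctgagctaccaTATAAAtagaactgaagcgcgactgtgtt
Il1rl1 start 1 (chr1:40429320-40429569, plus strand): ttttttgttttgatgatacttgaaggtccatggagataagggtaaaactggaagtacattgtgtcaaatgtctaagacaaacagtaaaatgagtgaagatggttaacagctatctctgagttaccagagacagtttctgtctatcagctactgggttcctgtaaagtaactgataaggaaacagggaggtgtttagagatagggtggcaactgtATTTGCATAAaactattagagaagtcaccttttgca
Il1rl1 start 2 (chr1:40439379-40439628, plus strand): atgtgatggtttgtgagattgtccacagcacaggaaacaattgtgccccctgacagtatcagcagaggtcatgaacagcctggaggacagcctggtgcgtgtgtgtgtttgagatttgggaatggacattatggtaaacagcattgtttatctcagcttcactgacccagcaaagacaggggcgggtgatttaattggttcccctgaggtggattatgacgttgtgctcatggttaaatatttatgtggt
Il1r1 start 1 (chr1:40224830-40225079, plus strand): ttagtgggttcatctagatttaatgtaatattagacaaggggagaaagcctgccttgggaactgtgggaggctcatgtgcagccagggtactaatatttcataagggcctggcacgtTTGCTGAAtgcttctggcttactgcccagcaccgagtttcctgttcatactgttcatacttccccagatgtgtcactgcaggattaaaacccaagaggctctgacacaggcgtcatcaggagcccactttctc
Il1r1 start 2 (chr1:40266336-40266585, plus strand): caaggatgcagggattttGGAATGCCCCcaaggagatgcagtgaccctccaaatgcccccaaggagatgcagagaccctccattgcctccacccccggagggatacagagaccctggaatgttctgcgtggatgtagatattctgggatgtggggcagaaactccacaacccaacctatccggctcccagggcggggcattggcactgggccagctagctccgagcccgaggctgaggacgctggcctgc
Il18 start 1 (chr9:50554450-50554699, plus strand): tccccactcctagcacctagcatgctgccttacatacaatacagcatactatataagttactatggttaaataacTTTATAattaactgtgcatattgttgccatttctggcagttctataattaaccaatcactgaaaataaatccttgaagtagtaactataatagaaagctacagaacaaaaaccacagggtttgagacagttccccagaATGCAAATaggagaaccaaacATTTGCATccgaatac

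Il33 start 2 and Il1rl1 start 1 each held the run TTGCATAA, which matched the C/EBP letters and overlapped an octamer match, at bases -87 to -80 for the octamer of Il33 and -36 to -29 for that of Il1rl1. Il1r1 start 1 held another C/EBP match, at -133 to -126. The C/EBP letters were found in 3 of the 13 windows of the 8 genes, against 9.56% of 32851 promoter windows of the RefSeq table. The TATA box letters were found in 5 of 13 against 12.4%. These matches lay at -32 to -27 for Il1a, -31 to -26 for Il1b and -29 to -24 for Il33 start 2. Those of Il33 start 1 (-203 to -198) and Il18 (-175 to -170, minus strand) lay much farther from the start. An octamer match was found in 5 of 13 windows, from 4 of the 8 genes (Il33, Il1rl1, Il18 and Il1rn), against 1.60% of all windows. The octamer was added to the search after these sequences had been read, Il18 held it at both -37 to -30 and -16 to -9, and the 2 windows of Il1rn with the match overlap and share it. The kappaB consensus was found only in Il1r1 start 2 among the 13 windows (7.25% of all), AP-1 in 2 windows, those of Il1a and Il1rn start 1 (6.75%), and the interferon-stimulated response element in 0 (2.98%). A match describes the letters in the window and does not show that a factor binds there, and the arrays give 1 value per gene without separating its starts.

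Il33 (ENSMUSG00000024810), the alarmin that binds ST2, was measured at 7.43, 8.14 and 7.65 log2 units in SCC FAK-WT replicates 1 to 3. In SCC FAK-/- cells the values were 6.80, 6.74 and 6.75. The lowest SCC FAK-WT array was thus 0.63 above the highest SCC FAK-/- array, and the SCC FAK-/- arrays agreed closely, within 0.061 of each other. Mean levels were 7.74 ± 0.37 (SD, n = 3) and 6.76 ± 0.033 (SD, n = 3), a log2 difference of 0.98 (standard error 0.18, 95% confidence interval 0.55 to 1.40, limma with Benjamini-Hochberg adjusted p = 0.0494). Expressed as a fold, the interval ran from 1.47 to 2.64. The fit used a common variance for both lines although these SDs differed widely, and no fit with separate variances was run. A larger absolute difference was found in 1.56% of all genes, and Il33 was number 302 of 17204 by p-value. The call lay close to its threshold: without moderation of the variances the adjusted p was 0.200, and with each array centered on its median it was 0.0532. Leaving out SCC FAK-WT replicate 3 gave an adjusted p of 0.105, and leaving out SCC FAK-/- replicate 1, 2 or 3 gave 0.144, 0.158 and 0.148, while the difference itself stayed between 0.78 and 1.14 over the 6 fits that each leave out an array.

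**Figure D1:**
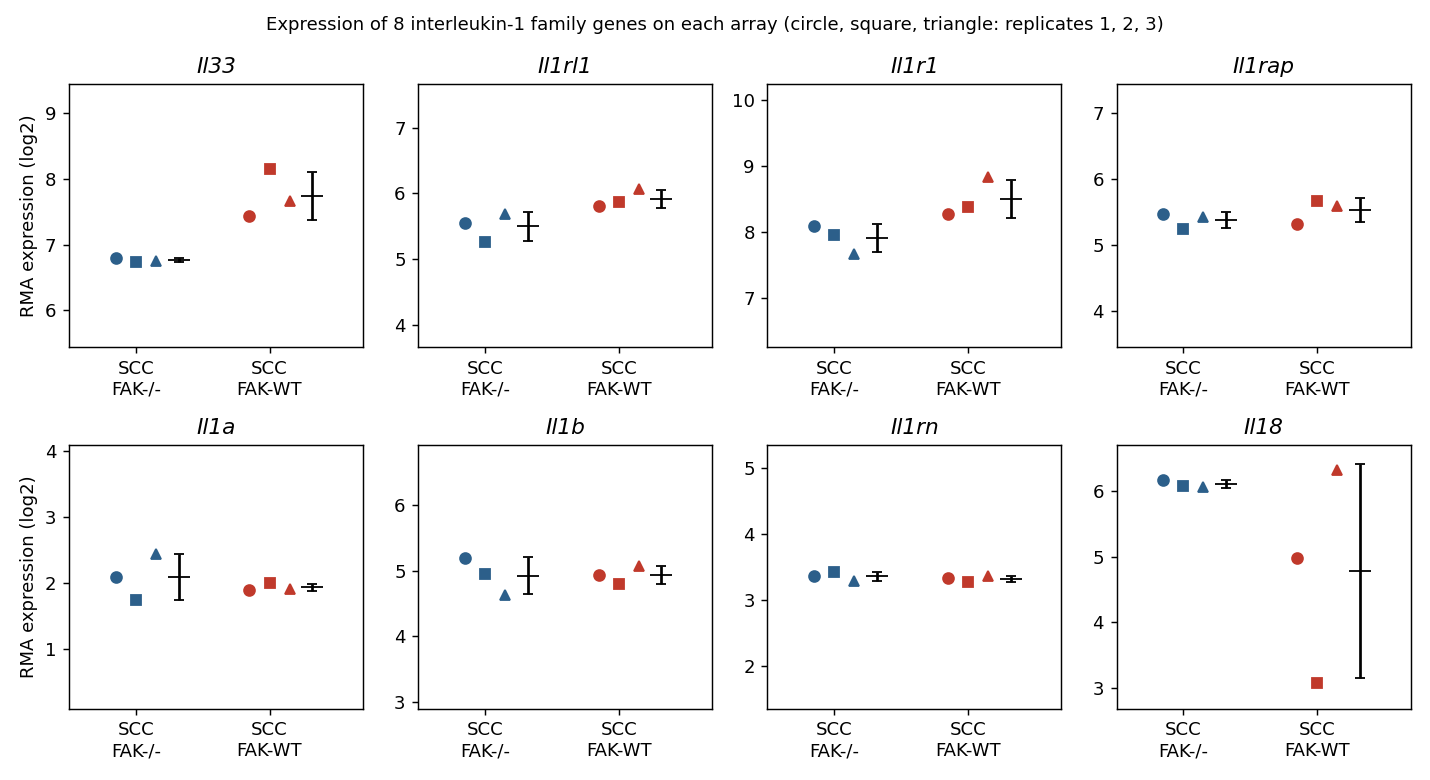
Log2 RMA expression (vertical axis, spanning 4 log2 units in every panel) of the 8 genes on the 3 SCC FAK-/- arrays (blue) and 3 SCC FAK-WT arrays (red), with circles, squares and triangles for replicates 1, 2 and 3 and the mean ± SD in black. The SCC FAK-WT points lie above all SCC FAK-/- points for Il33, Il1rl1 and Il1r1, and Il18 runs from 3.07 to 6.31 within SCC FAK-WT.

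Il1rl1 (ENSMUSG00000026069), which encodes the IL-33 receptor ST2, had values of 5.81, 5.87 and 6.07 in SCC FAK-WT replicates 1 to 3. The SCC FAK-/- values were 5.55, 5.26 and 5.69. All SCC FAK-WT arrays were higher, but the gap between the groups was only 0.13 log2 units. The means were 5.92 ± 0.14 (SD, n = 3) and 5.50 ± 0.22 (SD, n = 3), and the log2 difference of 0.42 (standard error 0.14, 95% confidence interval 0.087 to 0.74) did not pass the adjusted threshold (limma, adjusted p = 0.210, unadjusted p = 0.0201). An absolute difference larger than this was found in 12.5% of all genes. The ligand and its receptor were thus both measured at a higher mean in the same line, with the call made for the ligand alone. Whether the Il1rl1 value comes from the soluble or the membrane-bound form was not tested.

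Il1r1 (ENSMUSG00000026072), the signalling receptor for IL-1α and IL-1β, stood at 8.28, 8.39 and 8.84 in SCC FAK-WT replicates 1 to 3. SCC FAK-/- cells gave 8.09, 7.96 and 7.67. The groups did not overlap and were 0.19 log2 units apart at their closest. With means of 8.50 ± 0.29 (SD, n = 3) and 7.91 ± 0.21 (SD, n = 3), the log2 difference was 0.60 (standard error 0.18, 95% confidence interval 0.18 to 1.02), which missed the adjusted threshold (limma, adjusted p = 0.159, unadjusted p = 0.0118). In the gene order of RefSeq, Il1r1 and Il1rl1 lie on chromosome 1 with Il1rl2 alone between them, and Il18r1 and Il18rap follow. The identifiers of the other genes of this receptor cluster were not paired with names here, so whether the neighbours differ was not tested.

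Il1rap (ENSMUSG00000022514), the co-receptor that both Il1r1 and ST2 need to signal, overlapped between the lines. Its values were 5.32, 5.66 and 5.59 in SCC FAK-WT cells and 5.47, 5.24 and 5.42 in SCC FAK-/- cells. The log2 difference of 0.15 had a 95% confidence interval of -0.16 to 0.45 (limma, adjusted p = 0.676), which leaves room for a change of up to 1.37-fold upwards. SCC FAK-WT replicates 2 and 3 were above all SCC FAK-/- arrays and replicate 1 was not.

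**Figure D2:**
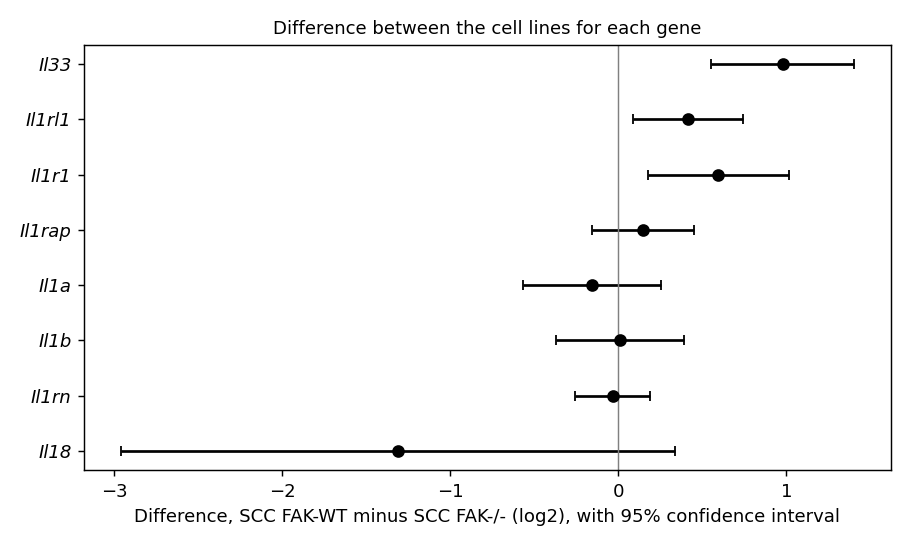
Difference in log2 expression, SCC FAK-WT minus SCC FAK-/-, for each gene (points) with its 95% confidence interval from limma (bars, not adjusted for the number of genes). The intervals of Il33, Il1rl1 and Il1r1 lie above 0, those of the other 5 genes include 0, and the interval of Il18, from -2.96 to 0.34, is the widest.

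Neither IL-1 agonist differed beyond its replicate spread. Il1a (ENSMUSG00000027399), the alarmin form of IL-1, was at 1.88, 1.99 and 1.90 in SCC FAK-WT and 2.08, 1.74 and 2.44 in SCC FAK-/- cells. Only 1.10% of genes had a lower mean value, so Il1a lay at the bottom of the range of the arrays in both lines, where differences can be understated, and no detection call was used that would tell a low level from background. Il1b (ENSMUSG00000027398), the inflammasome-dependent form, was at 4.93, 4.79 and 5.07 in SCC FAK-WT and 5.19, 4.95 and 4.62 in SCC FAK-/- cells. The SCC FAK-WT values of both genes fell inside the range of the SCC FAK-/- values. The log2 difference was -0.16 for Il1a (95% confidence interval -0.57 to 0.25, limma adjusted p = 0.751) and 0.010 for Il1b (-0.37 to 0.39, adjusted p = 0.987). Il1a and Il1b are immediate neighbours on chromosome 2 in the RefSeq order.

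Il1rn (ENSMUSG00000026981), which encodes the antagonist that occupies the IL-1 receptor without signalling, was at 3.34, 3.27 and 3.36 in SCC FAK-WT and 3.36, 3.43 and 3.28 in SCC FAK-/- cells. Its interval was the tightest of the 8 genes, with a log2 difference of -0.034 (95% confidence interval -0.26 to 0.19, limma adjusted p = 0.919), but 15.6% of genes had a lower mean value and the gene was also dim.

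Il18 (ENSMUSG00000039217), an inducer of interferon-γ whose precursor epithelial cells make constitutively, had the widest replicate spread of the 8 genes. The SCC FAK-WT values were 4.97, 3.07 and 6.31 in replicates 1 to 3. In SCC FAK-/- cells they were 6.16, 6.07 and 6.06. SCC FAK-WT replicates 1 and 2 were below every SCC FAK-/- array and replicate 3 was above every one, so the groups overlapped. The mean was 4.79 ± 1.63 (SD, n = 3) against 6.10 ± 0.058 (SD, n = 3), a log2 difference of -1.31 with a 95% confidence interval of -2.96 to 0.34 (limma, adjusted p = 0.442). This was a larger absolute difference than that of Il33, yet it was not distinguishable from the spread between replicates. Without SCC FAK-WT replicate 2 the difference was -0.46 (adjusted p = 0.634), and without SCC FAK-WT replicate 3 it was -2.07 (adjusted p = 0.142), so the size of the difference depended on single arrays.

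The replicate spread of Il18 was unusual among all genes on the arrays. Counting Il18 itself, 10 of the 17204 genes (0.0581%) had an SD between SCC FAK-WT arrays as large as that of Il18, and 4 of the 4182 genes with a mean within 1 log2 unit of it. On SCC FAK-WT replicate 2 Il18 was 1.90 log2 units below its lowest value on any other array, and it was the only 1 of 17204 genes to fall that far below all other arrays on that array. On each of the other 5 arrays 0 genes did so. The SD between SCC FAK-WT arrays was 28.1 times that between SCC FAK-/- arrays, a ratio reached by 31 genes in all, in SDs that each rest on 3 values. What set the Il18 value on these arrays was not tested.

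**Figure D3:**
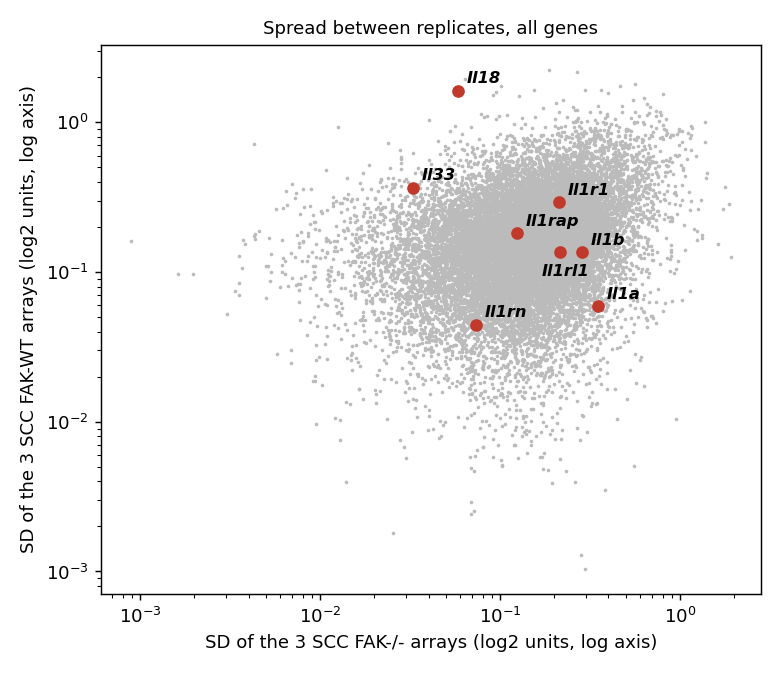
SD of the 3 SCC FAK-WT arrays against the SD of the 3 SCC FAK-/- arrays for every gene (grey) and the 8 genes (red), in log2 units on log axes. Il18 lies at 1.63 against 0.058 at the upper edge of the cloud, and Il33 at 0.37 against 0.033.

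Counted over the family, 1 of the 8 genes (Il33) passed an adjusted p under 0.05 with the higher level in SCC FAK-WT cells. That call was made for 0.820% of all genes in that direction. Of the 8 genes 0 were called lower, but the share of all genes called lower was not counted, so nothing is read from this 0. At an unadjusted p under 0.01 the same 1 gene was called higher, beside 3.19% of all genes called higher in SCC FAK-WT cells. Without overlap between the groups 3 genes were higher, beside 11.5% of all genes, and 0 were lower, beside 10.0%. For groups without overlap, an exact two-sided permutation test of 3 arrays against 3 always gives p = 0.1, the smallest p it can give. It therefore adds nothing for these 3 genes. The median log2 difference was 0.078 over the 8 genes and 0.016 over all genes, and the median absolute difference was 0.29 and 0.14. The 3 genes without overlap were 1 of the 5 ligand genes and 2 of the 3 receptor genes, of which Il33 alone passed the adjusted threshold.

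**Figure D4:**
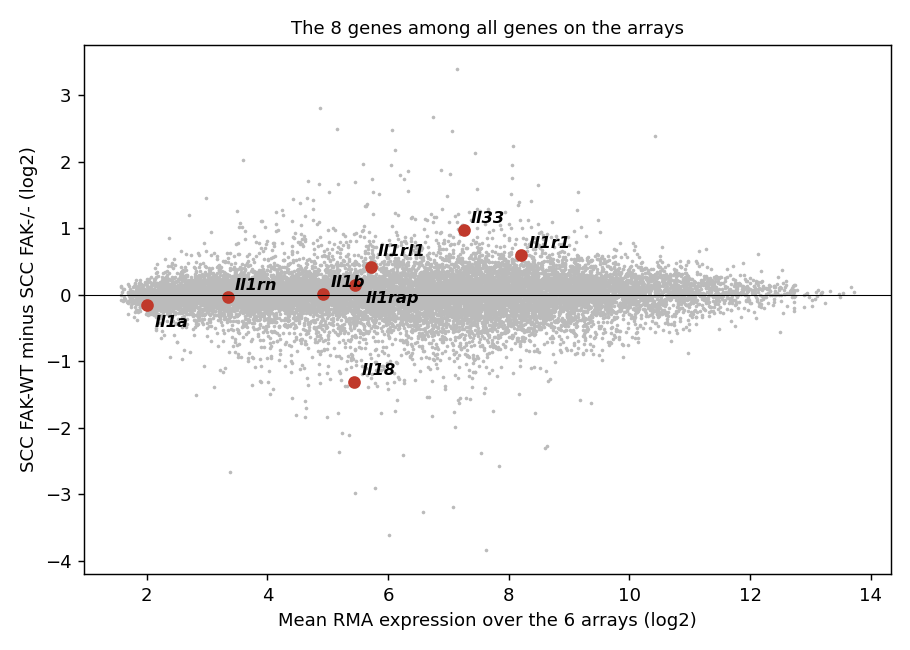
Log2 difference between the lines, SCC FAK-WT minus SCC FAK-/-, against the mean log2 expression over the 6 arrays for all 17204 genes (grey) and the 8 genes (red). Il33 and Il18 lie at the edges of the cloud at 0.98 and -1.31, and Il1a at its dim end at a mean of 2.01.

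Across the arrays as a whole, the median log2 value lay between 5.90 and 5.97 and the median SD between replicates was 0.155 in SCC FAK-WT and 0.145 in SCC FAK-/- cells. With any single array left out, Il1r1 differed by 0.43 to 0.71 and Il1rl1 by 0.30 to 0.51 log2 units. Their direction could not change in these fits, because their groups did not overlap. Il18 kept its sign over a range of -2.07 to -0.46.

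**Figure D5:**
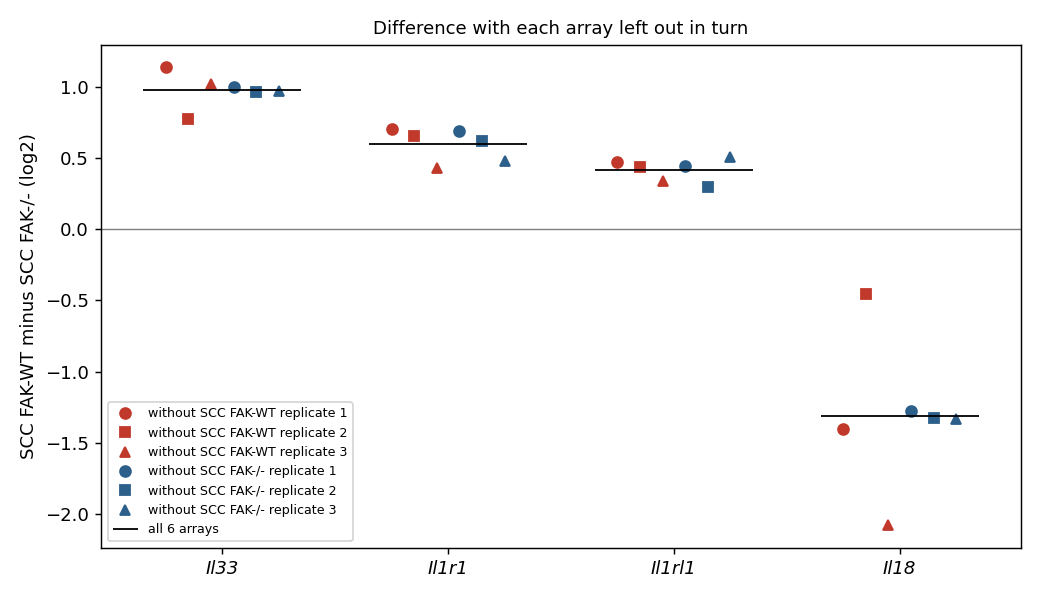
Log2 difference, SCC FAK-WT minus SCC FAK-/-, for Il33, Il1r1, Il1rl1 and Il18 with all 6 arrays (black lines) and with each array left out in turn (red for a SCC FAK-WT array, blue for a SCC FAK-/- array; circle, square and triangle for replicates 1, 2 and 3). All points of the first 3 genes lie above 0, as they must for groups without overlap. Those of Il18 move from -2.07 without SCC FAK-WT replicate 3 to -0.46 without SCC FAK-WT replicate 2.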

How the data were processed

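Total RNA of the 6 samples was amplified, labelled with biotin and put on 1 Affymetrix mouse expression array each. Probes were combined by the authors into a value per Ensembl gene and normalized by RMA in the affy package (versions and probe mapping not given in the sources used here), and the deposited values were read as log2 from their range. RMA equalizes distributions between arrays and can compress differences of dim genes. The variant of its background correction was not stated. A two-sided linear model of the cell line alone was fitted to all 17204 genes in limma 3.58.1 under R 4.3.3, with moderated variances, and p-values were adjusted by Benjamini-Hochberg over all of them. The fit was tested on simulated normal values with equal variance in both lines. That test does not cover genes such as Il33 and Il18, whose SDs differed between the lines. Groups followed the labels. Arrays have no read depth, and 3 arrays per line limit the precision.

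Alternatives were other moderation, centering, quantile normalization, a filter on dim genes, the replicate number as a block and leaving out arrays. The members and lists were chosen with earlier results of these data known. Names of the 8 genes came with their identifiers. No other identifier (0 in the gene table) could be paired with a symbol, so the planned lists of pathway genes and cell type markers, the fak gene, and the genes nearest in pattern were not analysed here. The rule for naming took all 8 members. Promoters were matched by symbol for 8 of 8 genes, and bases after each start were left out.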

Additional observations from a re-analysis of the deposited data

How the results depend on the processing

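Il33 had a log2 difference of 0.97 to 1.01 in the 6 alternative fits that keep all arrays and 0.78 to 1.14 when an array was left out. Over all 12 linear-model fits its unadjusted p was 0.000416 to 0.010. Its direction was fixed in advance in most of them. Other moderation, the filter and the replicate block leave the difference unchanged, and leaving out an array cannot reverse groups without overlap. Its adjusted p stayed under 0.05 in 5 of the 12. It was above 0.05 without moderation (difference 0.98, adjusted p = 0.200), with median centering (1.01, 0.0532) and under a replicate block (0.98, 0.0886), and leaving out an array gave 0.0445 to 0.158. The number of members called was accordingly 1 or 0: 0 without moderation, 0 with median centering, 0 with the replicate block and 0 to 1 with an array left out. An unadjusted p under 0.01 called the same 1 gene. The numbers were not taken to pair the arrays, since deviations of arrays that share a number correlated at -0.034 to 0.028.

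Il1r1, Il1rl1, Il1rap and Il18 kept their direction in all 12 fits and were called in 0 of them. For Il1r1 and Il1rl1 the direction was fixed in the same fits as for Il33. For Il1rap and Il18 it was fixed where the fit left the difference unchanged. The unadjusted p of Il1r1 in these linear-model fits was 0.0091 to 0.0466. That of Il1rl1 was 0.0125 to 0.0669 and lay under 0.05 in 10 of the 12. Differences close to 0 changed sign with an array left out. Il1a ran from -0.33 to 0.017, Il1b from -0.14 to 0.14 and Il1rn from -0.071 to 0.0026, with Il1a at 0.017 without SCC FAK-/- replicate 3, Il1b at -0.058 without SCC FAK-WT replicate 3 and -0.14 without SCC FAK-/- replicate 3, and Il1rn at 0.0026 without SCC FAK-/- replicate 2. The filter removed Il1a and Il1rn as dim. The planned counts of pathway genes were not run, for want of names. Il1a and Il1rn have low values, and their signal over background was not measured.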
